A study of Homo sapiens with 30 samples.

Results

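The terminal probe sets of a gene are the short stretches that an exon array measures at the gene's 2 ends. For each gene symbol with 10 to 49 exon-level probe sets, the probe set ids were sorted as numbers. The 2 lowest and the 2 highest ids were the terminal probe sets, and the gene's other probe sets were its interior. The rule used no measured value. It gave 43892 terminal probe sets in 10973 genes, set against 165268 interior probe sets, out of 287329 probe sets in the exon-level table. The median gene had 17 probe sets, and every gene gave 4 members.

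The study lowered the subunits of the negative elongation factor (NELF) in T47D, an established luminal breast cancer cell line. The 5 groups were siControl, an siRNA against luciferase, and siRNA against subunit A (siNELF-A), B (siNELF-B), C (siNELF-C) or E (siNELF-E). Values for all 4 knockdowns are given in the order of these letters. All 5 groups, siControl included, received 10 nM siRNA with a lipid reagent, fresh medium after 48 hours and harvest 48 hours later, and 1 ug of total RNA per sample went to an Affymetrix exon array after removal of ribosomal RNA. Each group had 3 arrays, which the series describes as technical repeats, so that every p-value here measures the spread between arrays and not between cultures. The deposited values were log2 signals from robust multi-array averaging (RMA), and every difference below is on that log2 scale.

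NELF binds RNA polymerase II shortly after it leaves the promoter and holds it in a paused state, until the kinase P-TEFb releases the polymerase into the gene body. Short RNAs made by paused polymerase come from the start of the gene, and full transcripts add the interior and the end. Probe sets near the start can therefore see RNA that begins at the promoter, while interior probe sets see RNA that was extended. Whether these arrays read the short RNAs of paused polymerase was not tested. Human genes also often have alternative promoters and alternative last exons.

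An id alone does not say which end of a gene is its start. Over genes placed on the RefSeq annotation (GRCh38.p14, used for gene order and strand only, since the files use hg18), the median ids of neighbouring genes rose along the chromosome in 99% of 4461 pairs on the plus strand and in 98.9% of 4412 pairs on the minus strand. Low ids were accordingly taken as the start side on the plus strand and as the end side on the minus strand. That ids also run this way inside a gene was assumed. With this assignment, 8923 genes had 17846 start-side and 17846 end-side probe sets, and 2050 genes with 8200 terminal probe sets had no strand in the table and stayed out of the split by side.

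Most changes below are given in 2 forms. The own change of a probe set is its level in the knockdown minus its level in siControl. The relative change subtracts the change of the gene's median from the own change, so that a probe set that holds its level in a gene that falls has a positive relative change. A relative change was called at an adjusted p below 0.05 (limma, Benjamini-Hochberg over the 256450 probe sets fitted in 15205 genes) and at least 1.5-fold. An own change was called by the same limits over all 287329 probe sets. Counts of own changes at an unadjusted p below 0.05 have no share over all probe sets beside them, since none was computed.

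Across the libraries as a whole, array medians were between 5.177 and 5.262 in siControl and between 4.362 and 5.237 in the knockdowns. The correlation of arrays within a group ranged from 0.8176 to 0.9708. siNELF-B arrays 2 and 3 stood apart from each other, with medians of 5.237 and 4.362, and because all groups share one estimate of spread they widen it for every comparison. Counts of calls, some named probe sets and the differences in genes that fell are therefore also given without these 2 arrays. Own-level shares and the gene lists are given with all arrays only. In siControl, 9 markers of luminal breast cells (among them ESR1, GATA3 and KRT8) had gene-level values between 7.69 and 12.329, and 10 markers of basal, mesenchymal, endothelial and white blood cells lay between 1.425 and 5.289, beside a median of 4.816 over all clusters. KRT5 and TP63 had no cluster of their own symbol and were not read.

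The start side is counted by id and strand, and the distance of its probe sets from an annotated start was not known. RefSeq start sequences are printed for 3 genes. They are the genes whose start-side probe sets are described most closely below: OAS3, an interferon-stimulated sensor of double-stranded RNA; NELFCD, the gene targeted in siNELF-C; and STRADB, a pseudokinase that activates the kinase LKB1. Each line gives the 250 bases before the annotated start on GRCh38.p14, read 5′ to 3′ on the gene's strand. Capitals mark matches on either strand to a pair of GAAA with any 2 bases between them, the core of the element through which interferon acts, and to GGGCGG, the GC box, which reads CCGCCC when it lies on the opposite strand.

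OAS3, chr12:112938224-112938473, strand +: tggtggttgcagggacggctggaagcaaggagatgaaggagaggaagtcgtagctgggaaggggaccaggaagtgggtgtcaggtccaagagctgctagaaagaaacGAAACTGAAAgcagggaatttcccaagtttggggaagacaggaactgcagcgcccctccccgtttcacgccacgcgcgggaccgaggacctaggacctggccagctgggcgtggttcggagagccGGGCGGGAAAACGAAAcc
NELFCD, chr20:58981006-58981255, strand +: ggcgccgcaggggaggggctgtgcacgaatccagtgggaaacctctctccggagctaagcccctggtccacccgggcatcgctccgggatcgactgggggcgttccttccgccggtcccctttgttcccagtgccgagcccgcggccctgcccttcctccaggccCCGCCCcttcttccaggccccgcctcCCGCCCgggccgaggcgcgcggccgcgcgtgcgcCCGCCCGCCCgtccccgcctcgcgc
STRADB, chr2:201451490-201451739, strand +: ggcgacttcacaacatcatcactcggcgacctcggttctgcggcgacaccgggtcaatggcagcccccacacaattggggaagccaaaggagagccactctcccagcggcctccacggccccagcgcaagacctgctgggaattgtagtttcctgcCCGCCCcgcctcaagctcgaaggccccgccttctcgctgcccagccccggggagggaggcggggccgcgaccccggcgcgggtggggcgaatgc

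The OAS3 window held 2 matches to the GAAA pair, beginning 143 and 12 bases before the start, and 1 to GGGCGG directly beside the nearer one. The NELFCD window held 4 matches to GGGCGG, the nearest pair of which overlap, and the STRADB window held 1, and neither held the GAAA pair. Among 35116 windows of the same length in the RefSeq table, 3.02% held the GAAA pair and 42.6% held GGGCGG. These are matches of letters, and no binding was measured.

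The targeted genes were read first. NELFB had no terminal probe set in the rule's genes. In siNELF-E cells, the 4 terminal probe sets of NELFE, the RNA-binding subunit, had own changes of -1.88, -3.32, -2.22 and -1.27, and the 2 inner ones passed the test (adjusted p = 0.00106 and 0.00713), along with 9 of 11 interior probe sets. The start-side probe set 2948778, for example, read 7.171, 7.173 and 7.234 in siControl and 5.139, 5.259 and 4.519 in siNELF-E, with no overlap. The relative changes of the 4, between -0.71 and 1.34, were not called. In bulk RNA of this kind, fewer cells that make an RNA and less RNA per cell cannot be told apart.

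NELFA, the subunit that carries part of the contact with polymerase, changed less in siNELF-A cells. Of its 4 terminal probe sets, 1 was called lower on its own level, along with 1 of 11 interior ones. This was 2757581, from 7.337, 6.782 and 7.036 to 4.939, 5.127 and 4.393 (own change -2.23, adjusted p = 0.00892). The end-side probe sets 2757543 and 2757544 were below siControl in every siNELF-A array too. Their own changes of -2.07 and -1.67 were not called (limma, adjusted p = 0.231 and 0.187). The outermost start-side probe set of NELFA, 2757582, read 4.283, 4.023 and 3.696 in siControl and 4.401, 4.332 and 4.652 in siNELF-A. It lay above siControl in all 3 arrays while the gene's median measured -0.61, and neither its own change of 0.46 (adjusted p = 0.577) nor its relative change of 1.07 (adjusted p = 0.478) was called.

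NELFCD, the gene of the C and D forms of the subunit, gave the clearest contrast between ends and interior. In siNELF-C cells 21 of its 22 interior probe sets fell, with own changes between -4.55 and -1.48 and a median of -3.79. The outermost start-side probe set, 3891281, read 11.141, 10.228 and 10.204 in siControl and 11.539, 10.963 and 10.991 in siNELF-C. Its levels overlapped between the groups, while all 3 siNELF-C arrays were above siControl once the gene's fall was taken off, and its relative change was 4.35 (SE 0.602, adjusted p = 0.0364).

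The next probe set inward, 3891282, read 8.887, 8.434 and 8.648 in siControl and 8.483, 8.862 and 9.156 in siNELF-C, a relative change of 3.89 (SE 0.341, adjusted p = 0.00237). At the end side the outermost probe set, 3891321, went from 7.347, 7.42 and 7.211 to 6.753, 7.211 and 6.641, with an own change of -0.46 that was not called (adjusted p = 0.363) and a relative change of 3.25 (SE 0.386, adjusted p = 0.0202). Its neighbour 3891320 fell with the interior, from 7.405, 7.245 and 7.298 to 3.767, 3.109 and 4.072 (own change -3.67, adjusted p = 0.00272). The siRNA against NELF-C thus left 3 of the 4 terminal probe sets of its target near their control level. In the other 3 knockdowns no terminal probe set of NELFCD was called in either form.

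**Figure D1:**
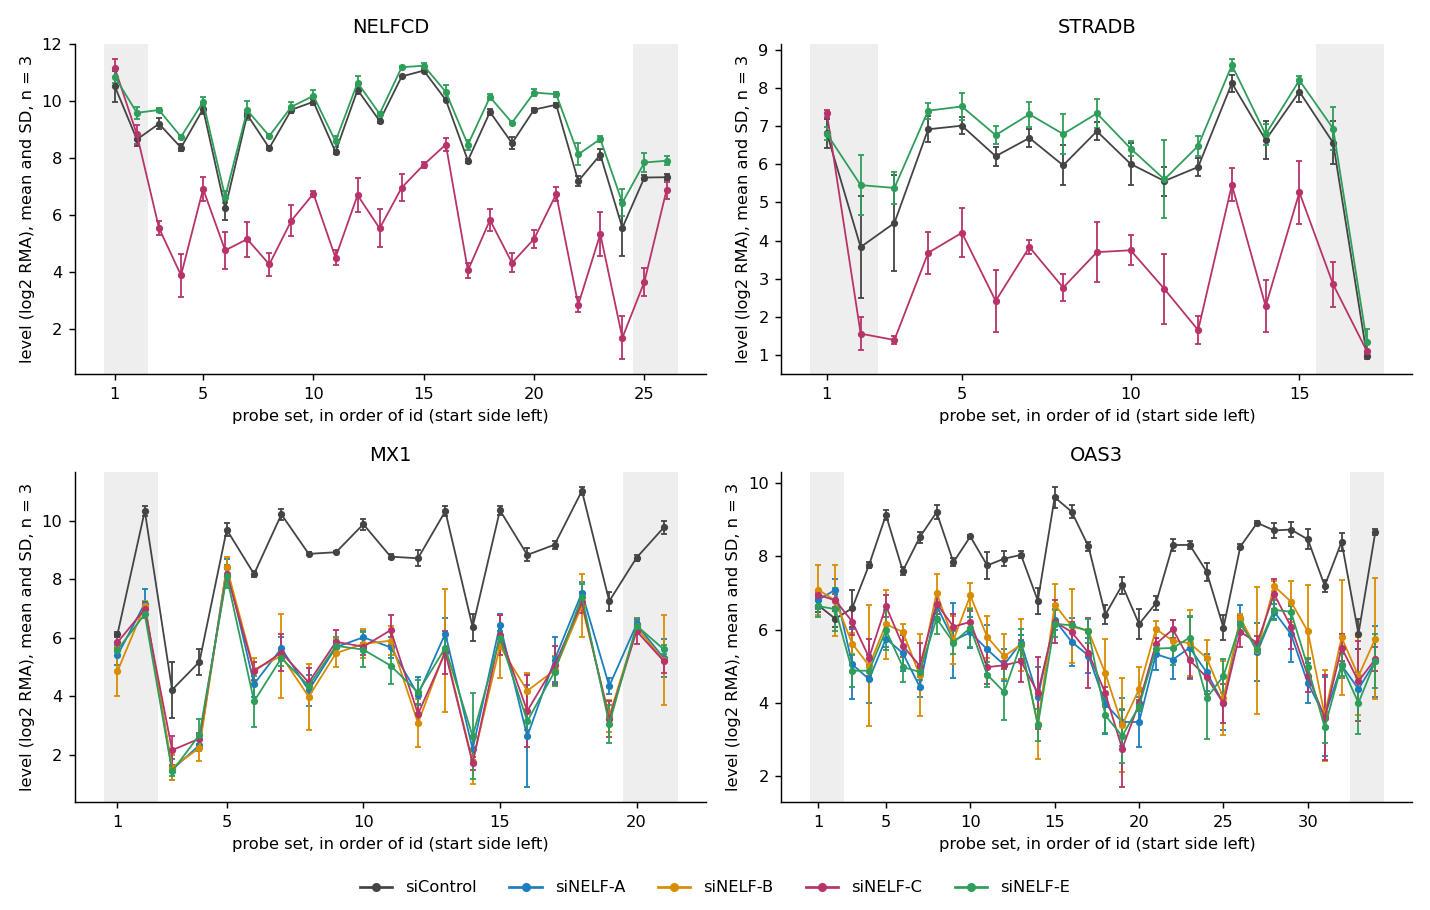
Level of every probe set of NELFCD, STRADB, MX1 and OAS3 in order of id, with the start side at the left (log2 RMA, mean and SD of 3 arrays per group). Grey bands mark the terminal probe sets; at the far left the siNELF-C points of NELFCD (11.164 against 10.524 in siControl) and STRADB (7.326 against 6.805) lie above siControl, while the interior lies below it.

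STRADB followed the same course in siNELF-C cells. Of its 13 interior probe sets 12 fell, with a median own change of -3.06. In siNELF-A, siNELF-B and siNELF-E 0 of the 13 were called lower, with medians of -0.67, -0.62 and 0.485. The outermost start-side probe set, 2522795, read 6.563, 7.237 and 6.614 in siControl and 7.359, 7.229 and 7.392 in siNELF-C, which is no lower in any array than the lowest control, and its relative change was 3.70 (SE 0.527, adjusted p = 0.0406). The outermost end-side probe set, 2522821, was also called (relative change 3.29, adjusted p = 0.0222), but it read between 0.922 and 1.341 in all 6 arrays, below the 25th percentile of all probe sets (2.929), where a fall cannot be seen. Set against the gene-level cluster of STRADB, its relative change was -0.245, beside an own change of 0.114. That cluster therefore did not fall in siNELF-C, and the fall of STRADB and the relative calls above rest on the exon-level probe sets.

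SGPL1, the lyase that breaks down sphingosine-1-phosphate, fell in siNELF-C cells in 14 of 15 interior probe sets (median own change -2.51) and in 2 of its 4 terminal ones. Its interior had 0 of 15 called lower in siNELF-A, siNELF-B and siNELF-E, with medians of -0.87, -1.12 and -0.83. Its start-side probe set 3250866 read 9.088, 9.191 and 8.569 in siControl and 9.328, 9.834 and 10.207 in siNELF-C. The siNELF-C arrays were all above siControl, the own change of 0.84 was not called (adjusted p = 0.291), and the relative change was 3.56 (SE 0.489, adjusted p = 0.0364).

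Over all genes, few terminal probe sets were called relative to their gene. In siNELF-C, 23 were called higher, which is 0.0524% of the terminal probe sets beside 0.0156% of all probe sets fitted and 0.00605% of the interior, and 1 lower (0.00228%, beside 0.0039% of all fitted). In siNELF-A and siNELF-E 3 each were called higher and none lower, 0.00683% of the terminal probe sets in either, beside 0.00195% of all fitted in either and 0 interior probe sets called higher. In siNELF-B none was called, and 0.00078% of all fitted were called higher. At an unadjusted p below 0.05, limma gave 6353 terminal probe sets higher in siNELF-B, 14.5% of them beside 7.87% of all fitted, and 1392 lower. In the interior 10785 were higher and 8220 lower. Limma's diffSplice, which pools one spread per gene, called 246 terminal probe sets higher (0.56%, beside 0.249% of all fitted) and 88 lower (0.2%, beside 0.296%) in siNELF-B. None was called the same way in all 4 knockdowns, against 436 higher and 51 lower at an unadjusted p below 0.05 in each and 5 by diffSplice. For the 436 and 51 no share over all probe sets fitted was computed, and the 4 comparisons share the siControl arrays. Of the 5 by diffSplice 4 were higher and 1 lower, beside 7 higher and 10 lower in the interior.

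These counts depended on single arrays. In siNELF-C they ran from 2 without siControl array 2 to 197 without siNELF-B array 3, and in siNELF-B they reached 4667 without siNELF-B array 2. Without siNELF-B arrays 2 and 3 together, 78, 143, 619 and 118 terminal probe sets were called, with siNELF-B then 1 array that is assumed to vary like the others. In that fit, 1.26% of terminal probe sets were called higher in siNELF-C, beside 0.466% of all probe sets fitted and 0.287% of the interior. In siNELF-A, siNELF-B and siNELF-E these shares of terminal probe sets were 0.166%, 0.226% and 0.239%, beside 0.062%, 0.0916% and 0.0733% of all fitted. By side the shares called higher in siNELF-C were 2.16% at the start and 0.516% at the end. In the other 3 knockdowns the start-side shares were 0.235%, 0.359% and 0.342%, the end-side shares 0.0953%, 0.123% and 0.179%, and the interior shares 0.0363%, 0.0551% and 0.0339%.

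The 27 probe sets called in at least 1 knockdown lay in 22 genes, and most belonged to a gene whose median had gone down. Of the 24 called in siNELF-C, 20 belonged to a gene whose median was lower by more than 1, 15 had an own change of at least 0.5 in the called direction, and 8 were below the 25th percentile of signal in both groups. Those of NELFCD, STRADB (2522795), SGPL1, OAS2, MX1 and GRIK4 were named by a rule, and the others described were picked after their values were seen. The dim ones carry no reading of their own: the outer end of DLGAP5, a spindle gene, read 0.946, 1.82 and 1.811 in siNELF-E and 1.011, 0.994 and 1.83 in siControl while the median of the gene measured -2.53. The calls at SPC24, a kinetochore gene, and TACC3, a spindle gene, in siNELF-E, and at ZNF611, a zinc finger gene, in siNELF-A and siNELF-C were of this kind too.

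In 3 genes the called probe set rose on its own level as well. SYNE4, a member of the nesprin family that links the nucleus to microtubule motors, had an outermost start-side probe set at 3.826, 4.296 and 3.3 in siControl. It read 5.156, 4.926 and 5.226 in siNELF-C and 4.883, 4.99 and 5.06 in siNELF-E, above siControl in every array, with own changes of 1.30 (adjusted p = 0.036) and 1.17 (adjusted p = 0.045). In siNELF-A and siNELF-B the same probe set measured 1.20 and 0.90 (adjusted p = 0.0653 and 0.133). Only the relative change in siNELF-C, 1.73, was called (adjusted p = 0.0454).

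AGPAT3, an acyltransferase of phospholipid synthesis, showed the same at its outermost start-side probe set, from 7.713, 7.579 and 7.598 in siControl to 8.902, 8.733 and 8.555 in siNELF-C (own change 1.10, adjusted p = 0.0447). LSM14B, an RNA-binding protein of the cytoplasm, did so at its outermost end-side probe set, from 1.044, 1.062 and 1.459 to 3.227, 2.759 and 3.185 in siNELF-C (own change 1.87, adjusted p = 0.00854). The 2 groups of arrays did not overlap in either gene, and the LSM14B probe set was dim in siControl. In ZDHHC23, a palmitoyltransferase, the start-side probe set 2636697 read 8.274, 7.788 and 7.991 in siControl and 9.349, 8.857 and 9.232 in siNELF-C, but the own change of 1.13 was not called (adjusted p = 0.0973) and the relative change of 3.17 was (adjusted p = 0.0225). The only terminal probe set called lower, at the end of ALDH1A3, an enzyme of retinoic acid synthesis, was dim throughout (1.675 to 2.437 in siControl and 1.161 to 1.751 in siNELF-C), in a gene whose median measured 1.82.

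**Figure D2:**
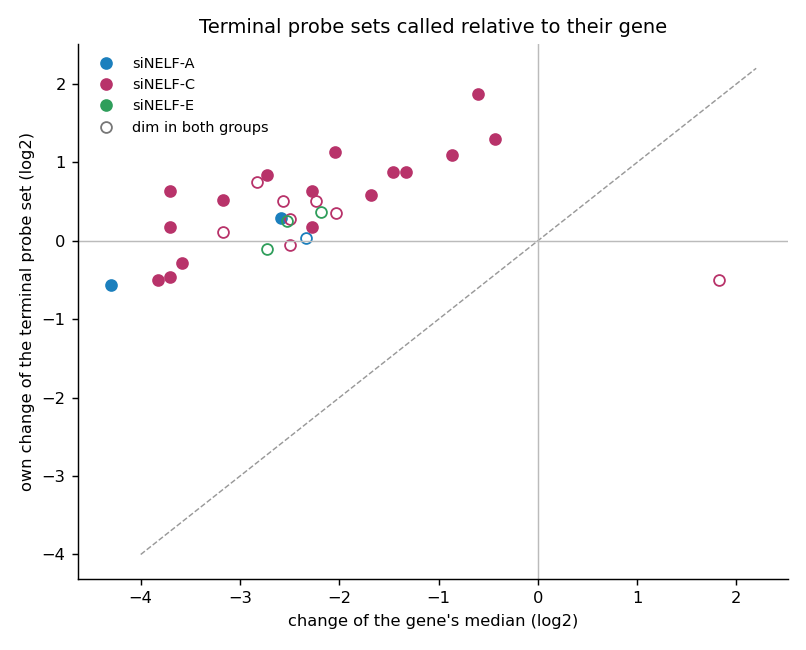
Own change of each called terminal probe set against the change of its gene's median (both log2, knockdown minus siControl), with 1 point per probe set and knockdown and the dashed line where the relative change is 0. Own changes lie between -0.56 and 1.87 while most gene medians went down by more than 1; open circles are below the 25th percentile of signal in both groups, and the single point at the right is ALDH1A3.

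The pattern was next described over all genes with a strand, by place from each end. In siNELF-C the median own change was 0.19 at the outermost start-side probe set, 0.02 at the second, -0.11 and -0.17 at the following places and -0.25 in the middle of the gene. It then stayed between -0.24 and -0.20 up to the outermost end-side probe set. siNELF-A ran from 0.15 at the outermost start-side place to -0.18 in the middle and -0.08 at the outermost end, and siNELF-B from 0.12 to -0.36 and -0.18. siNELF-E had the flattest course, from 0.07 to -0.08 and -0.01.

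In relative terms the outermost start-side probe set was positive in 70%, 75.3%, 74.4% and 58.5% of 8923 genes, with medians of 0.26, 0.45, 0.36 and 0.10. The second start-side probe set, the last one inside the rule, had medians of 0.12, 0.23, 0.20 and 0.03. The next one inward, just outside the rule, had 0.03, 0.09, 0.10 and 0.00. At the end side the places just inside and outside were 0.04 and 0.03 in siNELF-A and 0.11 and 0.09 in siNELF-B. The start-side course was the same on both strands: the lowest id of plus-strand genes and the highest id of minus-strand genes had relative medians of 0.27 and 0.24 in siNELF-A, 0.47 and 0.43 in siNELF-B, 0.38 and 0.35 in siNELF-C and 0.10 and 0.09 in siNELF-E. The 4 comparisons share the siControl arrays.

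**Figure D3:**
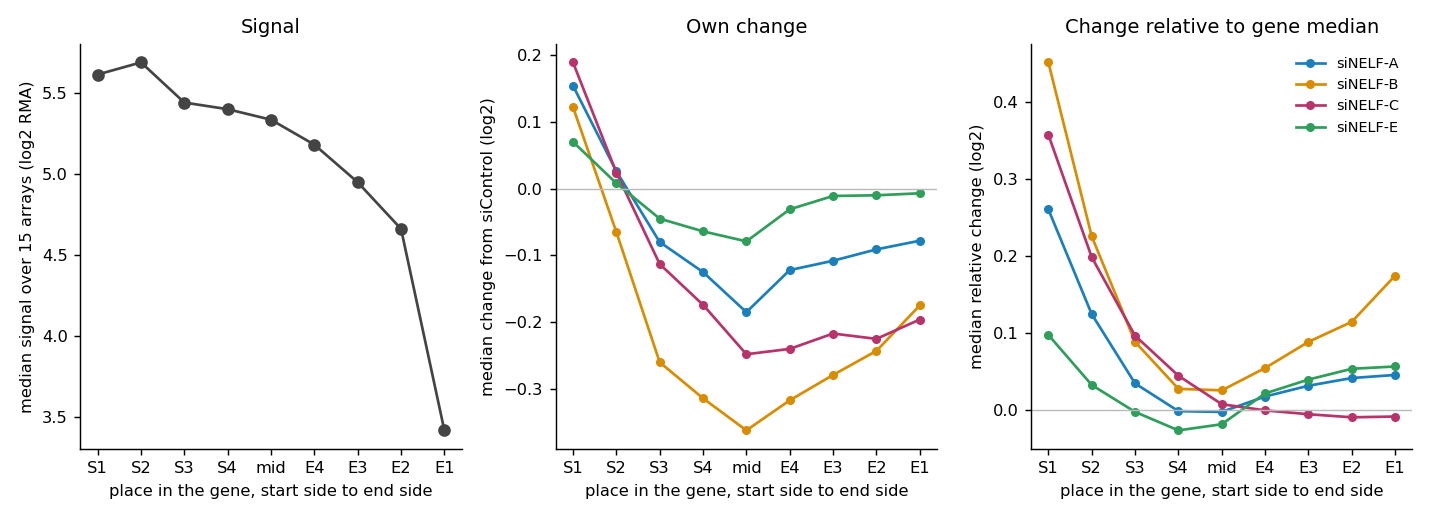
Median signal, own change and relative change of probe sets by place in the gene, from the outermost start-side probe set (S1) through the middle (mid) to the outermost end-side one (E1), over 8923 genes (log2; lines are the 4 knockdowns). S1 is the highest place in both panels of change in each knockdown, and the signal at E1, 3.42, is the lowest; signals of different probe sets also reflect their probes and are not RNA amounts.

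Gene by gene, all 3 arrays of a knockdown exceeded all 3 siControl arrays in relative level at 18.8% of start-side probe sets in siNELF-A, beside 9.25% of all probe sets fitted. The same shares were 13.2% and 8.07% in siNELF-B, 27.3% and 12% in siNELF-C, and 13.4% and 7.93% in siNELF-E. Over all terminal probe sets they were 13.6%, 11.8%, 18.5% and 11.4%. At the end side they were 9.21%, 11%, 10.7% and 9.68%, and in the interior 8.34%, 7.34%, 10.7% and 7.14%. In the opposite direction, start-side probe sets were all lower in 4.32%, 3.91%, 4.15% and 6.56%, beside 6.94%, 5.86%, 8.14% and 7.17% of all fitted.

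The start-side relative change was larger at higher signal. Among start-side probe sets in the lowest of 5 equal classes of signal the median relative change was 0.03, 0.11, 0.05 and 0.03. In the highest class it was 0.28, 0.54, 0.44 and 0.09, with own changes of 0.18, 0.11, 0.21 and 0.09. Interior probe sets of that class had own changes of -0.20, -0.53, -0.33 and -0.11, and end-side ones -0.14, -0.47, -0.39 and -0.03. At the end side 35.7% of probe sets lay below the 25th percentile of signal, against 16.5% at the start and 21.5% in the interior.

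Genes at the limits of the rule had start-side values of the same sign. Genes with 10 probe sets, the smallest in the rule, had start-side relative medians of 0.15, 0.28, 0.25 and 0.04, and genes with 9, just outside it, 0.07, 0.23, 0.19 and 0.02. The 13 genes with 49 probe sets gave 0.10, 0.33, 0.24 and 0.15, and the 17 genes with 50 gave 0.39, 0.54, 0.34 and 0.18. Leaving out the 142 genes whose ids lie over 2000 apart left 3, 0, 23 and 3 terminal probe sets called relative to their gene.

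Summarised per array, the start-side shift moved with the array itself. The score was each gene's median start-side level minus its median interior level, and then the median over genes. Only its change between arrays can be read, since different probe sets are set against each other. It was -0.013, -0.028 and -0.101 in siControl, 0.116, 0.132 and 0.244 in siNELF-A, 0.241, -0.061 and 0.744 in siNELF-B, 0.249, 0.337 and 0.22 in siNELF-C, and 0.13, 0.042 and -0.008 in siNELF-E. All arrays of siNELF-A and siNELF-C were above siControl, whereas siNELF-B overlapped siControl, and the lowest siNELF-E array lay just above the highest siControl array.

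Group means exceeded siControl by 0.21 in siNELF-A (SD of the siNELF-A arrays 0.07, n = 3), 0.36 in siNELF-B (SD 0.407, n = 3), 0.32 in siNELF-C (SD 0.061, n = 3) and 0.10 in siNELF-E (SD 0.07, n = 3), beside an SD of 0.048 in siControl. The score was highest on the array with the lowest median of all probe sets, siNELF-B array 3 (0.744 at a median of 4.362), and near the control values on siNELF-B array 2 (-0.061 at 5.237). Without siNELF-B array 3 the difference of siNELF-B was 0.137. With the array median as a covariate the differences from siControl became 0.00, -0.03, 0.05 and 0.00. The shift of the average gene and the overall brightness of an array cannot be told apart in these data.

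The corresponding end-side score differed from siControl by 0.03, 0.14, -0.01 and 0.06, with SDs of 0.065, 0.006, 0.03 and 0.054 beside 0.031 in siControl. siNELF-B was the group whose 3 arrays (-0.72, -0.729 and -0.719) all lay above the siControl arrays (-0.879, -0.873 and -0.822). Over all 4 terminal probe sets together, the group means exceeded siControl by 0.108, 0.212, 0.116 and 0.062, with every array of each knockdown above every siControl array, and by 0.021, 0.055, 0.007 and 0.021 with the array median as a covariate.

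**Figure D4:**
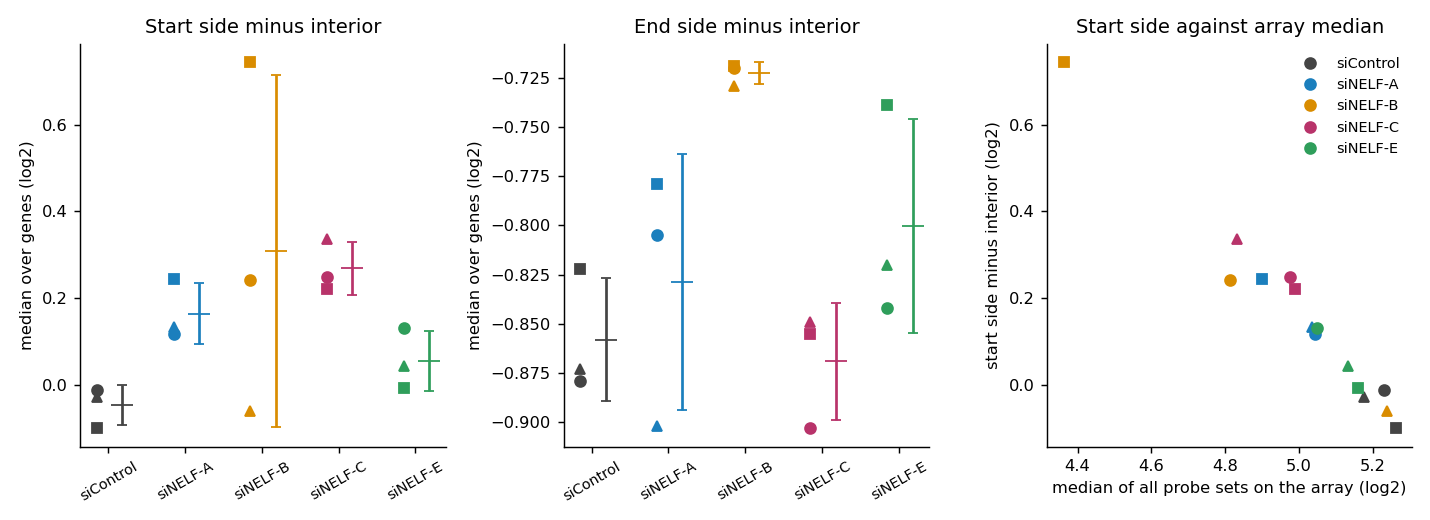
Start-side and end-side scores of the 15 arrays (median over genes of end minus interior, log2; circle, triangle and square are replicates 1, 2 and 3; the bar is mean and SD, n = 3), and the start-side score against the median of all probe sets on the array. The start-side score falls from 0.744 on the array with the lowest median to -0.101 on the array with the highest.

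On their own level, terminal probe sets were called lower at a smaller share than interior ones. In siNELF-C, 328 terminal probe sets were called lower (0.747%, beside 0.969% of all probe sets and 1.18% of the interior) and 71 higher (0.162%, beside 0.181% of all). In siNELF-E, 426 were lower (0.971%, beside 1.35% of all and 1.65% of the interior) and 90 higher (0.205%, beside 0.251%). In siNELF-A, 167 were lower (0.38%, beside 0.556% and 0.661%) and 26 higher (0.0592%, beside 0.0623%). In siNELF-B, 34 were lower (0.0775%, beside 0.157% and 0.185%) and 4 higher (0.00911%, beside 0.00661%). These counts depended on single arrays too, from 44 without siControl array 3 to 2502 without siNELF-B array 3 in siNELF-C, in either direction. By side, 0.325% of start-side and 0.459% of end-side probe sets were lower in siNELF-A, 0.0672% and 0.0728% in siNELF-B, 0.437% and 1.08% in siNELF-C, and 0.936% and 1.03% in siNELF-E.

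The genes that fell were looked at on their own. These were taken as the genes with a strand in which at least 50% of interior probe sets were called lower on their own level, a choice that uses the interior and neither end. There were 29, 4, 35 and 94 such genes, and with single arrays left out 7 to 142, 1 to 2233, 4 to 404 and 30 to 238. Because the genes were chosen by a low interior on these same arrays, a start above the middle is partly set by the choice, and the values are a description. In siNELF-C their middle probe sets had a median own change of -2.18 and 72.5% were called lower, as the choice requires. The outermost start-side probe sets had a median of -0.38 and 20% were called lower, the second ones -1.40 and 34.3%, and the outermost end-side ones -1.83 and 51.4%.

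In siNELF-E the outermost start-side probe sets of the 94 genes had a median own change of -0.68 with 28.7% called lower, against -1.87 and 36.2% at the outermost end and -2.25 and 69.5% in the middle. In siNELF-A the values were -1.09 and 31% at the outermost start, -1.58 and 48.3% at the outermost end and -2.51 and 77.1% in the middle. The outer end is often dim: among probe sets above the 25th percentile of signal the outermost end had medians of -2.60 in siNELF-A, -2.01 in siNELF-C and -2.04 in siNELF-E, and the outermost start -1.09, -0.36 and -0.68. The 3 comparisons share the siControl arrays, and no test was made over the genes chosen. The outermost start minus the middle was 1.43 in siNELF-A, 1.80 in siNELF-C and 1.57 in siNELF-E with all arrays. Without siNELF-B arrays 2 and 3 more genes met the choice, and the differences were smaller, at 0.985, 1.019 and 0.993.

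In the genes that rose by the same rule, 2 in siNELF-A, 7 in siNELF-C, 3 in siNELF-E and none in siNELF-B, the outermost start had median own changes of 2.75, 2.23 and 1.10, and the middle 2.29, 1.91 and 1.64.

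**Figure D5:**
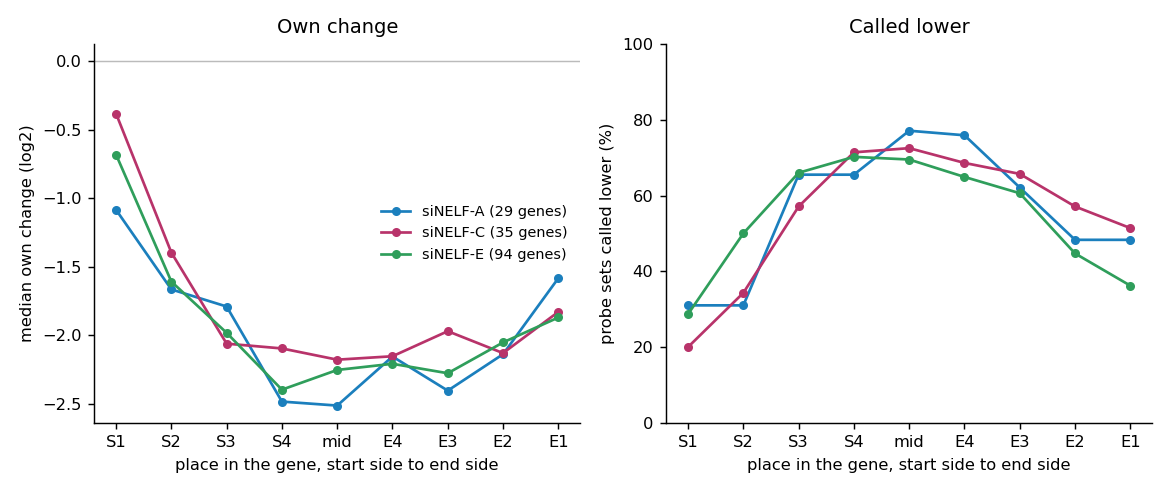
Median own change (log2) and percentage of probe sets called lower, by place in the gene, in genes of which at least 50% of interior probe sets were called lower (29 genes in siNELF-A, 35 in siNELF-C and 94 in siNELF-E). Both panels run from the outermost start-side probe set (S1) to the outermost end-side one (E1); S1 lies nearest to 0, at -1.09, -0.38 and -0.68.

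Genes induced by interferon, which encode antiviral proteins, fell at both their ends and their interior. The rule's genes included 30 of 45 on a list of interferon-stimulated genes, with 120 terminal and 504 interior probe sets. Over all probe sets 0.556%, 0.157%, 0.969% and 1.35% were called lower on their own level. In this list 22, 11, 22 and 16 terminal probe sets fell (18.3%, 9.17%, 18.3% and 13.3%), against 27.6%, 17.9%, 31% and 24.6% of the interior. None was called higher in any knockdown (limma), and 9 of the 120 were higher at an unadjusted p below 0.05 in at least 1. The median own change of their start-side probe sets was -0.66, -0.51, -0.83 and -0.57, and that of the interior -1.46, -1.53, -1.49 and -1.07. Relative to the gene, 1 was called higher in siNELF-A and 3 in siNELF-C, beside 0.00195% and 0.0156% of all fitted. Those of OAS2 and MX1 are described below, and the remaining call in siNELF-C was at a probe set below the 25th percentile of signal in both groups. The list's median relative change was 0.53, 0.53, 0.43 and 0.40.

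MX1, a GTPase that blocks viral replication, carried both kinds of end. Its interior fell in 16, 16, 17 and 17 of 17 probe sets. The outermost start-side probe set, 3922120, read 6.214, 6.069 and 6.073 in siControl, 5.22, 5.182 and 5.798 in siNELF-A, 3.952, 4.979 and 5.622 in siNELF-B, 5.63, 6.065 and 5.824 in siNELF-C and 5.549, 5.529 and 5.675 in siNELF-E. All knockdown arrays were below siControl, yet no own change, from -1.27 to -0.28, was called. Its relative change was called in siNELF-C (3.30, SE 0.495, adjusted p = 0.0479) and measured 2.86, 2.52 and 3.14 elsewhere (adjusted p = 0.129, 0.185 and 0.0991). Limma's diffSplice called it in all 4 (adjusted p = 7.5e-05, 0.000821, 5.98e-07 and 6.71e-06).

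The second start-side probe set of MX1, 3922121, fell in all 4 knockdowns, with own changes of -3.17, -3.24, -3.37 and -3.54 (adjusted p = 0.000243, 0.000454, 0.000147 and 0.000146). Both end-side probe sets fell in all 4 as well, 3922154 with own changes of -4.49, -4.56, -4.59 and -4.18 (adjusted p = 0.00242, 0.00584, 0.00233 and 0.00182). In MX1, therefore, 1 of 4 terminal probe sets departed from the gene.

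In OAS3, whose start sequence is printed above, neither start-side probe set was called on its own level in any knockdown (limma). The outermost one, 3432468, read 6.854, 6.651 and 6.473 in siControl, 6.883, 6.542 and 7.026 in siNELF-A, 6.938, 6.485 and 7.838 in siNELF-B, 7.015, 6.902 and 6.93 in siNELF-C and 6.969, 6.389 and 6.567 in siNELF-E. Knockdown and control arrays overlapped in siNELF-A, siNELF-B and siNELF-E, and all siNELF-C arrays lay just above siControl. Its neighbour 3432469 read 6.307, 6.515 and 6.07 in siControl and 7.388, 7.079 and 6.798 in siNELF-A, an own change of 0.79 with no overlap (adjusted p = 0.486). Its siNELF-C arrays (6.645, 7.001 and 6.749) were all above siControl too, while siNELF-B (6.135, 6.344 and 7.892) and siNELF-E (7.213, 6.07 and 6.397) overlapped it. The interior of OAS3 fell in 28, 15, 25 and 28 of 30 probe sets, with medians of -2.77, -2.40, -2.59 and -2.84. Relative changes of 3432468 between 2.71 and 2.85 and of 3432469 between 2.82 and 3.48 were not called by the limma fit over all genes (adjusted p from 0.0945 to 0.185). Limma's diffSplice called both in all 4 (adjusted p from 0.000132 to 0.000565 and from 4.99e-07 to 0.000153). Without siNELF-B arrays 2 and 3 neither passed in siNELF-B (adjusted p = 0.0592 and 0.119), and both passed in the other 3 knockdowns (adjusted p between 0.00623 and 0.0135). OAS3 was picked after its values were seen.

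OAS2, the related sensor, had no strand in the table. Its second lowest id, 3432516, read 7.694, 7.775 and 7.765 in siControl, 7.153, 6.978 and 7.426 in siNELF-A and 7.087, 7.2 and 7.428 in siNELF-C, below siControl in every array by an average of 0.56 and 0.51. The gene's interior fell in 18 and 20 of 22 probe sets, and the relative changes of 3.75 in siNELF-A (SE 0.461, adjusted p = 0.0333) and 3.32 in siNELF-C (SE 0.461, adjusted p = 0.0364) were called. At the other end of OAS2, 3432545 fell in all 4, with own changes of -5.23, -4.61, -4.42 and -2.84 (adjusted p = 0.00161, 0.0115, 0.00534 and 0.035). Without siNELF-B arrays 2 and 3, 3432516 and a probe set of ELOVL2 were the 2 terminal probe sets called higher in all 4 knockdowns.

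Altogether 15 terminal probe sets of 10 genes fell on their own level in all 4 knockdowns, and none was called higher by limma (116 were higher at an unadjusted p below 0.05 in each). The 4 comparisons share the siControl arrays and one estimate of spread, so they are not independent of each other. The 15 were 0.0342% of the terminal probe sets, beside 0.0473% of all probe sets (136) and 0.0563% of the interior (93). Of the 15, 8 belonged to MX1 (3), OAS1 (3) and OAS2 (2), and 1 each to IRF9, the DNA-binding partner of the interferon-activated STAT factors, and DDX60, an antiviral helicase. LAMP3, a lysosomal membrane protein, CENPI, a centromere protein, KDM4D, a histone demethylase, NLGN1, a synaptic adhesion protein, and BIVM gave the other 5. By side, 6 were at the start, 6 at the end and 3 in genes without a strand. OAS1, unlike OAS3, fell at its start: 3432440 had own changes of -4.23, -3.77, -4.40 and -3.82 from a control level of 7.81 (adjusted p = 0.00134, 0.00804, 0.00114 and 0.00119).

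ELOVL2, an enzyme that lengthens polyunsaturated fatty acids, had no called own change at its outermost start-side probe set, 2941750, by limma. It read 6.388, 6.512 and 6.477 in siControl, 6.488, 7.03 and 6.228 in siNELF-A, 5.944, 6.019 and 7.219 in siNELF-B, 6.399, 6.919 and 6.721 in siNELF-C and 6.642, 6.955 and 6.826 in siNELF-E, with overlap in all but siNELF-E. The interior medians were -2.29, -1.98, -2.76 and -2.07, and 6, 1, 11 and 6 of 12 interior probe sets fell. Relative changes of 2.82, 2.21, 3.59 and 2.58 were not called (adjusted p = 0.225, 0.263, 0.084 and 0.276), and all were without siNELF-B arrays 2 and 3 (adjusted p = 0.00623, 0.0433, 0.000811 and 0.00902). It was picked after its values were seen.

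GRIK4, a subunit of kainate-type glutamate receptors, departed at its end. In siNELF-A 15 of 18 interior probe sets fell, while the outermost end-side probe set, 3352756, read 6.964, 6.899 and 6.839 in siControl and 6.641, 7.283 and 7.636 in siNELF-A (relative change 2.87, SE 0.33, adjusted p = 0.0242). Its own levels overlapped between the groups. In siNELF-C 6 of 18 fell, and the relative change was 2.26 (SE 0.33, adjusted p = 0.0454). LIG1, the ligase that joins Okazaki fragments, had start-side probe sets that moved apart. The second one, 3866948, read 6.191, 5.606 and 6.568 in siControl, 3.237, 3.277 and 2.256 in siNELF-A, 2.781, 5.56 and 1.243 in siNELF-B, 3.303, 3.852 and 4.275 in siNELF-C and 4.226, 3.384 and 1.499 in siNELF-E. All knockdown arrays were below siControl, but limma called neither form of change in any knockdown (own change adjusted p from 0.107 to 0.194, relative change from 0.299 to 0.824), while diffSplice called the probe set lower relative to the gene in all 4 (adjusted p = 7.64e-05, 1.65e-05, 0.0121 and 0.00879). The outermost one, 3866952, averaged 10.07 in siControl, with own changes of 0.64, 0.44, 0.59 and 0.27. LIG1 was picked after its values were seen.

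Mitotic genes fell mainly in siNELF-E. Of 152 terminal probe sets in 38 such genes, 60 fell on their own level in siNELF-E (39.5%), against 53.6% of 798 interior ones and 1.35% of all probe sets. At the start 31 of 66 fell (47%) and at the end 20 of 66 (30.3%), with median own changes of -1.69 and -1.91. Over all genes with a strand, 35.7% of end-side and 16.5% of start-side probe sets lay below the 25th percentile of signal, where a fall is hard to call. In siNELF-C 16 terminal probe sets fell (10.5%, beside 0.969% of all probe sets) and in siNELF-A 2 (1.32%, beside 0.556%). In siNELF-B none fell by limma (49 at an unadjusted p below 0.05), where 4 of 798 interior ones and 0.157% of all probe sets fell. Relative to the gene, 1 terminal probe set, that of DLGAP5 in siNELF-E, was called, beside 0.00195% of all fitted called higher. The list's median relative changes were 0.18, 0.40, 0.30 and 0.32.

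Genes of DNA replication, 42 with 168 terminal probe sets, fell in 39 terminal (23.2%) and 36% of interior probe sets in siNELF-E, beside 1.35% of all. In siNELF-C 5 of their terminal probe sets (2.98%) and 6.99% of interior ones fell, beside 0.969% of all. In siNELF-A and siNELF-B none of their terminal probe sets was called lower by limma, and 18 and 49 were lower at an unadjusted p below 0.05. No terminal probe set of the list was called relative to its gene, where 18, 38, 38 and 48 were higher at an unadjusted p below 0.05 (limma), beside 4.1%, 7.87%, 5.61% and 3.29% of all fitted. Their median relative changes were 0.16, 0.42, 0.33 and 0.44, beside -0.07 in siNELF-E for the interior.

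For the smaller lists, the shares of all probe sets called on their own level were 0.556%, 0.157%, 0.969% and 1.35% lower and 0.0623%, 0.00661%, 0.181% and 0.251% higher. Of 72 terminal probe sets in 18 oestrogen-induced genes, which mark the activity of the oestrogen receptor in these cells, 4, 0, 4 and 7 fell (17, 15, 22 and 22 at an unadjusted p below 0.05, limma), and 2 rose in siNELF-E. Of 128 terminal probe sets in 32 genes of pausing and elongation (other NELF partners, P-TEFb and related factors), none was called lower by limma (6, 24, 13 and 4 at an unadjusted p below 0.05) and 2 rose, both in siNELF-E. Immediate early genes, 14 with 56 terminal probe sets, had 2 that rose in siNELF-E and none called lower by limma (4, 5, 2 and 3 at an unadjusted p below 0.05). Luminal and keratin genes had 1 of 56 that fell, in siNELF-A, and genes of basal, mesenchymal, endothelial and white blood cells 0 of 56 in any knockdown by limma (2, 4, 0 and 1 lower and 1, 1, 3 and 1 higher at an unadjusted p below 0.05). Of 84 terminal probe sets in 21 adhesion and receptor genes, many of which have alternative promoters, 5 rose in siNELF-C (5.95%) and 3 in siNELF-A (3.57%), where 1 fell (1.19%). Relative to the gene, no terminal probe set of these lists was called by limma, where between 0 and 30 per list and knockdown were higher at an unadjusted p below 0.05, beside 4.1%, 7.87%, 5.61% and 3.29% of all fitted.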

How the data were processed

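Per the labels, the authors deposited log2 values made with RMA in ArrayAssist from the core exons of the array, on hg18, with no software version stated. The exon-level table of 15 arrays was used as deposited, and the gene-level table of the same arrays served for cell markers and as an alternative reference. No value column was left unmapped. Gene symbols came from the platform annotation, and 1325 of the rule's 10973 were updated through RefSeq. Single-symbol genes with at least 5 probe sets were fitted with limma 3.58.1 in R 4.3.3 (lmFit and eBayes, 5 groups, no covariate) on each probe set minus its gene's median on that array. The fit of own levels and the choice of genes whose interior fell were added after the values were seen. The fits were tested on simulated data. Terminal probe sets named by rule were those of the NELF genes, the 3 most changed called ones of each knockdown and up to 3 called per gene list, above the 25th percentile of signal and without overlap of arrays; all others named were chosen after their values were seen. Members and gene lists were chosen with earlier results of these data known. The number of arrays limits the precision, and with 3 arrays against 3 an exact permutation test cannot go below 0.1. Promoter sequences were read from RefSeq on GRCh38.p14.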

Additional observations from a re-analysis of the deposited data

How the results depend on the processing

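Same-numbered arrays did not deviate together in relative level (30 pairs, correlations from -0.182 to 0.081, 0 over 0.1). Own levels were not checked in this way, so whether the replicate number pairs arrays there was not tested. With the replicate number as a block, 0, 0, 7 and 1 terminal probe sets were called relative to their gene (knockdowns of A, B, C, E, in that order). On their own level 114, 11, 181 and 370 were called, 9 of them lower in all 4, beside 193, 38, 399 and 516 without the block. Counts of calls depended on the shared spread: leaving out each array in turn gave 0 to 49, 0 to 4667, 2 to 197 and 0 to 61 relative calls (0 to 3 in all 4), highest without siNELF-B array 2 or 3 and lowest without a siControl array, and 47 to 807, 4 to 8445, 44 to 2502 and 206 to 1207 own-level calls (4 to 80 in all 4). Without siNELF-B arrays 2 and 3 the counts were 78, 143, 619 and 118 (2 in all 4), and 1201, 1725, 3955 and 1581 on their own level (63 lower in all 4). Limma's diffSplice called 123, 334, 305 and 106, 5 of them in all 4. Against the gene-level cluster (9330 genes) the counts were 7, 4, 27 and 13, 2 of them in all 4. Quantile normalization gave 8 relative calls in siNELF-E and 22 own-level calls in siNELF-B, and end-side scores of 0.07 in siNELF-B and -0.052 in siNELF-C. Without dim probe sets siNELF-E had 0 relative calls, the score over all terminal probe sets was 0.163 in siNELF-C and 0.085 in siNELF-E, and the end-side score 0.101 in siNELF-B and -0.044 in siNELF-C. With the array median as a covariate (chosen after seeing the data) siNELF-C and siNELF-E had 8 and 76 relative calls, siNELF-A, siNELF-B and siNELF-E had 366, 7 and 1351 own-level calls (5 lower in all 4), the score over all terminal probe sets was 0.021, 0.055, 0.007 and 0.021, and the start-side score 0.001, -0.028, 0.05 and 0.002, which turned its sign in siNELF-B. Leaving out each array moved the scores over all terminal probe sets within 0.076 to 0.136, 0.127 to 0.288, 0.092 to 0.128 and 0.053 to 0.072, the start-side scores within 0.172 to 0.235, 0.137 to 0.54, 0.282 to 0.34 and 0.064 to 0.133, and the end-side scores within 0.004 to 0.066, 0.124 to 0.153, -0.022 to 0.007 and 0.027 to 0.078. The relative change of NELFCD 3891320 in siNELF-C was not called and reversed to -0.25 against the gene-level cluster, to -0.533 by diffSplice and to -0.034 without siNELF-C array 3 (-0.034 to 0.108 over the arrays left out), and that of STRADB 2522821, which is dim, to -0.245 against the gene-level cluster. Calls of single terminal probe sets relative to their gene were unstable too. Over each array left out in turn, 294 results lost their call, 290 were unchanged and 1 turned its sign. With the replicate block 22 lost it and 17 were unchanged, and with the array median as a covariate 17 lost it and 22 were unchanged. With quantile normalization 1 lost it and 38 were unchanged. The causes were not tested.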

Other observations

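Genes outside the range of the rule had start-side relative medians at or above 0. In 2367 genes with 5 to 8 probe sets they were 0.05, 0.13, 0.13 and 0.00 in knockdown order A, B, C, E, and in 219 genes with over 50 probe sets 0.24, 0.26, 0.28 and 0.05. SFXN2, a mitochondrial carrier, had its outermost start-side probe set at 5.26 in siControl and at 5.50, 5.82, 5.58 and 5.26 in the knockdowns, while the change of its median was -1.99, -1.21, -1.58 and -2.65. Its relative change was not called by the limma fit over all genes in any knockdown (adjusted p from 0.151 to 0.263), was called by diffSplice in all 4 (adjusted p = 0.00175, 0.016, 0.0193 and 0.000162), and was picked after its values were seen. LAMP3 split by end: its 2 highest ids were called higher relative to the gene in siNELF-C (2.91 and 2.45, adjusted p = 0.0479 and 0.03), whereas 2707878, near the low end, fell in all 4 knockdowns, with own changes of -2.87, -2.86, -3.25 and -2.75.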
